A study of Homo sapiens with 6 samples.

Results

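The genes described here are the cytosolic chaperones and the heat shock machinery of U2932 cells, a human cell line established from a diffuse large B-cell lymphoma of the activated B-cell-like type (ABC-DLBCL). They were picked by symbol: names starting with HSP or DNAJ, the numbered CCT genes, BAG1 to BAG6, and HSF1, HSF2, TCP1, STIP1, ST13, AHSA1, PTGES3, CHORDC1 and FKBP4, without 7 names that stand for endoplasmic reticulum (ER) chaperones or the unrelated HSPG2. This gave 100 of the 20667 genes measured. The choice of this gene group was made with its differences between the conditions known, so those differences are a description and support nothing by themselves, and the counts of genes past a p threshold in that contrast stand only beside the share of all genes. The symbol rule is wider than the name of the group. It also takes in the mitochondrial HSPD1, HSPE1 and HSPA9, J proteins of several compartments, and 11 pseudogene, antisense or readthrough symbols.

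Chaperones bind unfolded proteins and help them reach or keep their folded form. HSP70 proteins take up clients with J proteins (DNAJ), release them with nucleotide exchange factors of the HSP110 and BAG families, and pass many on to HSP90, while the ring-shaped chaperonin CCT folds actin, tubulin and other proteins. HSF1 is the transcription factor that binds heat shock elements, repeats of the letters nGAAn, in the promoters of many of these genes when cells are stressed, and lymphoma cells are known to express several of the chaperones at high levels.

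RNA-seq was run on 6 libraries in 2 groups of 3. In both groups U2932 cells carried a lentiviral pLKO.1 MISSION shRNA construct with puromycin resistance and the fluorescent marker tGFP, and stable lines were obtained by sorting and puromycin. One group expressed an shRNA against the kinase ROCK2 (ROCK2 KD) and the other a scrambled shRNA (Scr shRNA), and the labels number the libraries 1 to 3 in each. The labels do not say that the numbers stand for separate infections or cultures, so p-values measure the spread between these libraries, which may be technical. Values are FPKM, fragment numbers divided by transcript length and by the sequencing total of the library, so levels of different genes can be set side by side per length.

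ROCK2 itself was at 2.75, 5.35 and 1.26 FPKM in ROCK2 KD libraries 1, 2 and 3 and at 4.32, 7.21 and 5.78 FPKM in the same-numbered Scr shRNA libraries, lower in each pair. The deposited FPKM of the groups overlapped, while the scaled values did not. The B-cell genes CD79A (160 to 458 FPKM) and MS4A1 (73.6 to 511 FPKM) were high in every library, and the 8 fixed markers of T, myeloid, epithelial and fibroblast cells summed to 3.2 to 5.9 FPKM, most of it EPCAM, whose log2 difference between the groups was 0.07. The FPKM of replicate 1 summed to 217309 in ROCK2 KD and 208289 in Scr shRNA, against 438262 to 480612 in the other libraries, and libraries of the same number resembled each other. For that reason the libraries were brought to a common scale with trimmed log ratios and compared within replicate numbers. In bulk RNA, a smaller number of cells of a kind and less RNA per cell cannot be told apart.

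The promoters of the 2 stress-inducible HSP70 genes are shown first, because these genes had the largest differences described below. HSPA1A (promoter at chr6:31815293-31815542, plus strand) and HSPA1B (promoter at chr6:31827488-31827737, plus strand) are near-identical genes side by side in the MHC region of chromosome 6. The 250 bases before the annotated start of transcription, from RefSeq on GRCh38.p14, are given 5′ to 3′ on the gene's strand with a 2-unit heat shock element in capitals:
HSPA1A: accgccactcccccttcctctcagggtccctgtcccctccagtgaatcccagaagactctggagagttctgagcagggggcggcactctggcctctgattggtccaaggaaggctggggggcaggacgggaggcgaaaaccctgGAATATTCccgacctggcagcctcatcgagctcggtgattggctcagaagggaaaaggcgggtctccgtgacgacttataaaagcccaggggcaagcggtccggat
HSPA1B: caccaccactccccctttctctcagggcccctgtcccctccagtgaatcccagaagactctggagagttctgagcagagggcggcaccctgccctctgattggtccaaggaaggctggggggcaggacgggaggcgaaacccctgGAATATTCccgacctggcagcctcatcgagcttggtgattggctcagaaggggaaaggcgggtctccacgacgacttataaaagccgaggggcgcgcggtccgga
The sequences were 93.6% identical, with 235 identical bases, 14 mismatches and 2 gap columns. Both carried the same 8-letter match, its first base 106 bases before the start of HSPA1A and 105 bases before that of HSPA1B, and the HSPA1A match lies on the opposite strand of the overlapping window of HSPA1L as well.

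Longer elements of 3 units were searched with the letters GAANNTTCNNGAA and TTCNNGAANNTTC, and 2-unit elements with GAANNTTC and TTCNNGAA, each of which is contained in the longer form. Since each pair of patterns covers both orientations of its repeat, both strands were searched. Promoter windows ran from 250 bases before to 50 bases after the start and were found for 80 of the 100 chaperone genes. A 3-unit match was present in 8 of the 80 (10.0%) and in 166 of all 27305 genes with a window (0.608%), and a 2-unit match in 28 of the 80 (35.0%) and in 4417 of all (16.2%). The 8 genes were HSPA6, HSPA8, HSP90AA1, HSP90AB1, HSPD1, DNAJA1, DNAJB6 and CHORDC1. A match is a description of letters, not a measured binding site.

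Stretches around the matches of genes that the levels below turn on are given from the same source and build, with the 3-unit elements in capitals. They cover HSP90AA1 (chr14:102087105-102087147, minus strand), HSP90AB1 (chr6:44247763-44247858, plus strand), HSPA8 (chr11:123062164-123062381, minus strand), HSPD1 (chr2:197500053-197500090, minus strand), CHORDC1 (chr11:90223072-90223124, minus strand) and HSPA6 (chr1:161524451-161524493, plus strand):
HSP90AA1: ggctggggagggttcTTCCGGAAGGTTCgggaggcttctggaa
HSP90AB1: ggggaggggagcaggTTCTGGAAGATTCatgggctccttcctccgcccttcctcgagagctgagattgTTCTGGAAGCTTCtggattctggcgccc
HSPA8: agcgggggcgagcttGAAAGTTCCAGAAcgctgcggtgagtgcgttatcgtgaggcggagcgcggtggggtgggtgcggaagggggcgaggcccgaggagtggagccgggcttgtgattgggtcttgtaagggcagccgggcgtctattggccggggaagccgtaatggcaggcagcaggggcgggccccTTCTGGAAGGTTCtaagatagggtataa
HSPD1: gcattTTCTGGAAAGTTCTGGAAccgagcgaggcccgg
CHORDC1: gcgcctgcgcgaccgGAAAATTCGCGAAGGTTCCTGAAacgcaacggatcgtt
HSPA6: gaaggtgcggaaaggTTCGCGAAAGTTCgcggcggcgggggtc
HSP90AB1 and HSPA8 each had a pair of separate elements, and in HSPD1 and CHORDC1 neighbouring matches overlapped into a longer run. Genes with such elements had very different levels: HSPA8, HSP90AA1, HSP90AB1 and HSPD1 were the 4 most abundant chaperone transcripts in Scr shRNA libraries, while HSPA6 stayed at or below 0.24 FPKM in every library.

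**Figure D1:**
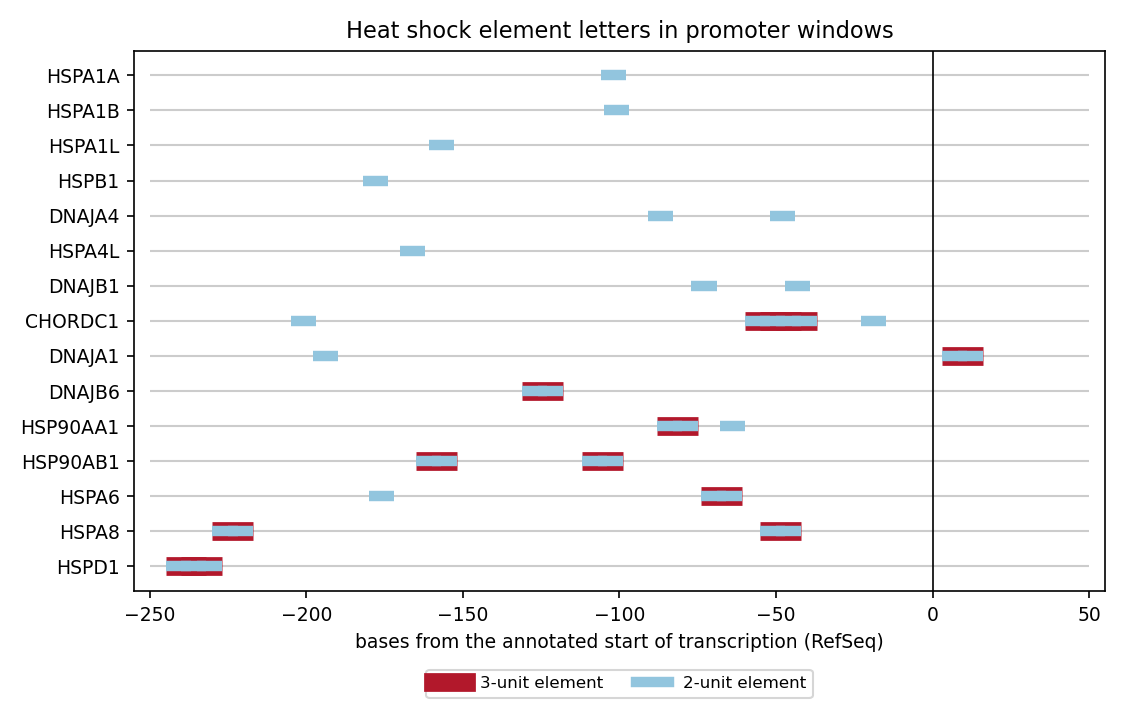
Position of heat shock element letters in promoter windows of 15 chaperone genes, in bases from the RefSeq start of transcription. Red bars mark 3-unit elements and blue bars 2-unit elements, and HSPA1A and HSPA1B each hold a single 2-unit match with its first base 106 and 105 bases before the start.

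Several chaperones were highly abundant transcripts, HSP90AA1 the 62nd by scaled mean in Scr shRNA among all genes. The 100 genes together made up 1.59%, 2.0% and 1.87% of all FPKM in Scr shRNA libraries 1, 2 and 3, and 1.21%, 1.97% and 1.71% in ROCK2 KD. In 23 genes at least 1 library reached 100 FPKM. At the other end, 23 genes were under 1 FPKM in all 6 libraries, and HSPB8, a small heat shock protein, was listed at 0 in each. The genes with at least 1 FPKM in at least 3 libraries numbered 73, and the other 27 were not fitted.

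The 3 leading transcripts were HSP90AA1 and HSP90AB1, which encode the inducible and the constitutive cytosolic HSP90, and HSPA8, the constitutive HSP70. In Scr shRNA libraries their FPKM averaged 942 ± 377, 960 ± 579 and 655 ± 347 (SD, n = 3), and their order was within that spread. Together they gave 28.9% to 38.0% of the FPKM of all chaperone genes. HSPD1, the mitochondrial HSP60, followed at 208, 494 and 637 FPKM in Scr shRNA libraries 1, 2 and 3. The 8 tested subunits of CCT, which assemble in equal numbers in each ring, differed by 3.76- to 4.19-fold between the highest and lowest subunit within a library.

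**Figure D2:**
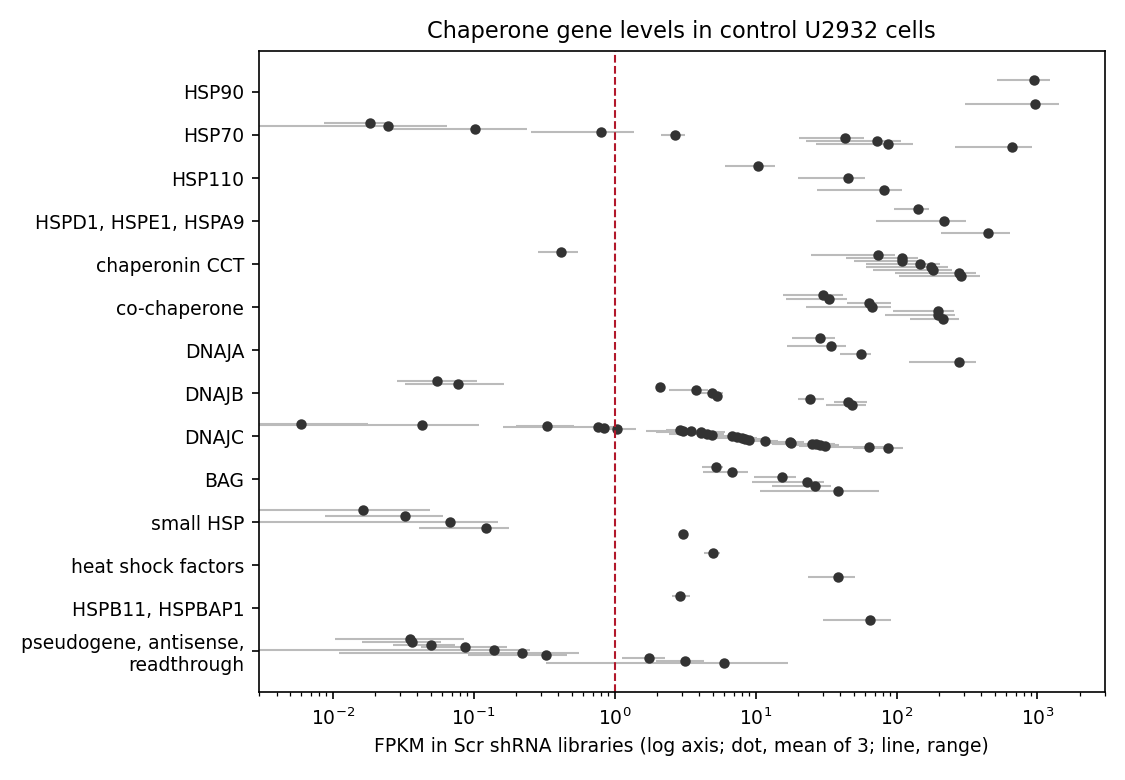
FPKM of chaperone genes in the 3 Scr shRNA libraries on a log axis, by family, with a dot for the mean and a line for the range. The dashed line marks 1 FPKM, and the HSP90 genes and HSPA8 lie at the right with means of 655 to 960 FPKM.

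The question the design puts is which transcripts differ when ROCK2 is silenced. In the fit over all 10526 tested genes (limma, with the replicate number as a block), the number of genes past an adjusted p of 0.05 was 0 (0%), chaperone genes included. An unadjusted p under 0.05 was given to 573 genes. Lower at that level were 242 genes (2.3%) and 10 of the 73 chaperone genes: HSPA1A, HSPA1B, HSP90AA1, HSPB1, HSPH1, HSPA4L, DNAJA4, STIP1, AHSA1 and HSPBP1. Higher were 331 genes (3.14%) and 1 chaperone gene, HSPB11. By direction alone, 19 chaperone genes were lower in ROCK2 KD in all 3 pairs, where the share of all genes was 12%, and 6 were higher in all 3, where it was 13.1%. After ComBat on the replicate number and limma without the block, the adjusted p was under 0.05 for 296 genes (2.81%), 7 of them chaperone genes (AHSA1, HSPA1A, HSPA1B, HSPA4L, HSPB1 and HSPBP1, lower, and HSPB11, higher). Nothing is read from these counts, since the group was chosen on this contrast.

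The median log2 difference of the 73 genes, ROCK2 KD minus Scr shRNA on log2(scaled FPKM + 1), was -0.07, and that of all tested genes was 0.00. It was -0.15, 0.00 and -0.09 in pairs 1, 2 and 3, with 51, 36 and 47 of the 73 genes lower, where 5047, 5274 and 5267 of all 10526 genes were. The mean was negative for 52 of the 73 and for 5327 of all genes.

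HSPA1A and HSPA1B encode the same stress-inducible HSP70 protein and had the largest differences of the group. HSPA1A (GRCh37 chr6:31783320-31785723) was at 88.4, 107 and 22.9 FPKM in Scr shRNA libraries 1, 2 and 3 and at 41.5, 53.1 and 14.3 FPKM in ROCK2 KD. It was lower in each pair, by log2 differences of -1.08, -0.99 and -0.66, while the groups overlapped, with both libraries of replicate 3 low. Its mean log2 difference of -0.91 (standard error 0.12) was the 11th lowest among the 10526 genes.

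HSPA1B (GRCh37 chr6:31795515-31798031) was at 102, 130 and 27.0 FPKM in Scr shRNA and at 48.9, 76.0 and 21.5 FPKM in ROCK2 KD. It too was lower in every pair, by -1.05, -0.76 and -0.34, with a mean of -0.72 (standard error 0.14). The copies share most of their sequence: 75.1% of the 50-base windows of the longest HSPA1A transcript and 73.6% of those of HSPA1B also occur in another gene, so reads can be split between them and their separate values are uncertain. Summed, the copies had log2 differences of -1.07, -0.87 and -0.49 (mean -0.81, SD 0.30, n = 3), and the ratio of HSPA1A to HSPA1B stayed between 0.66 and 0.86 in all libraries.

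The other HSP70 genes differed less or not in 1 direction. HSPA8 was at 262, 786 and 917 FPKM in Scr shRNA and at 183, 957 and 982 FPKM in ROCK2 KD, lower in pair 1 (-0.52) and higher in pairs 2 and 3 (0.29 and 0.08). The summed inducible copies stood at 0.73, 0.30 and 0.05 of the HSPA8 level in Scr shRNA and at 0.50, 0.14 and 0.04 in ROCK2 KD. HSPA1L, the neighbour of HSPA1A that is mainly known from testis, had 0.77, 1.38 and 0.26 FPKM in Scr shRNA and 0.73, 0.98 and 0.11 FPKM in ROCK2 KD and was not fitted. HSPA6, the strictly heat-inducible HSP70, was at 0.24, 0.042 and 0.026 FPKM in Scr shRNA and at 0.12, 0.019 and 0.13 FPKM in ROCK2 KD.

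**Figure D3:**
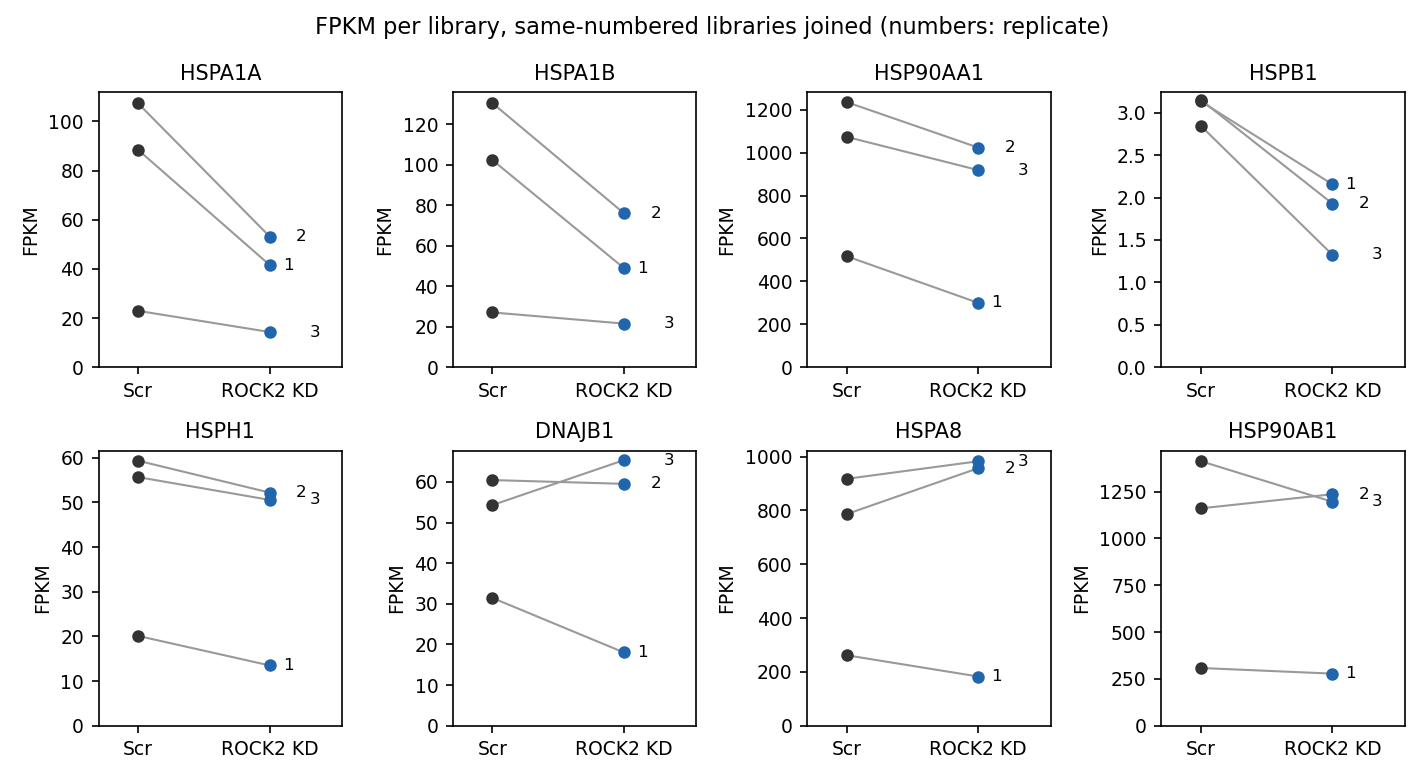
FPKM of 8 chaperone genes in each Scr shRNA and ROCK2 KD library, with lines joining libraries of the same replicate number. HSPA1A, HSPA1B, HSP90AA1, HSPB1 and HSPH1 go down in all 3 pairs, whereas DNAJB1, HSPA8 and HSP90AB1 go both ways.

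All 3 HSP110 genes, nucleotide exchange factors for HSP70, had negative mean differences. HSPH1 was at 20.1, 59.3 and 55.7 FPKM in Scr shRNA and at 13.5, 52.2 and 50.6 FPKM in ROCK2 KD, a mean log2 difference of -0.29 with the largest in pair 1 (-0.55) and -0.17 without that pair. HSPA4L was at 6.02, 13.7 and 11.8 FPKM in Scr shRNA and at 4.50, 11.9 and 8.92 FPKM in ROCK2 KD (mean -0.31). The constitutive HSPA4 had a difference of -0.03 and was higher in pair 2.

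The HSP90 genes are given side by side, and the difference between them was not tested. HSP90AA1 was at 517, 1236 and 1074 FPKM in Scr shRNA and at 300, 1024 and 919 FPKM in ROCK2 KD, lower in each pair by -0.79, -0.26 and -0.25 (mean -0.43, standard error 0.13, and -0.26 without replicate 1). HSP90AB1 was at 308, 1160 and 1412 FPKM in Scr shRNA and at 278, 1236 and 1195 FPKM in ROCK2 KD (mean -0.10, higher in pair 2). The ratio of HSP90AA1 to HSP90AB1 was 1.68, 1.07 and 0.76 in Scr shRNA and 1.08, 0.83 and 0.77 in ROCK2 KD, so it was lower in pairs 1 and 2 and level in pair 3. Both genes share part of their windows with processed copies, 17.5% for HSP90AA1 and 18.8% for HSP90AB1.

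Co-chaperones of HSP90 and HSP70 were lower on average in all 7 cases, though in only 3 of them in all pairs. STIP1, which links HSP70 to HSP90, was at 94.6, 257 and 235 FPKM in Scr shRNA and at 68.8, 245 and 182 FPKM in ROCK2 KD (mean log2 difference -0.30). AHSA1, the activator of the HSP90 ATPase, had -0.34, -0.18 and -0.24 in pairs 1, 2 and 3. HSPBP1, an exchange factor for HSP70, had -0.29, -0.26 and -0.16. PTGES3 (p23), ST13, FKBP4 and CHORDC1 had means of -0.14, -0.10, -0.17 and -0.04 and went both ways.

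J proteins bring clients to HSP70 and start its ATPase. Lower in all pairs were 2 of 4 tested DNAJA, 1 of 7 DNAJB and 3 of 21 DNAJC genes. Higher in all pairs were 0, 1 and 1 of them. Of all tested genes, 12% were lower and 13.1% higher in all pairs. DNAJA4 was at 18.1, 36.6 and 30.9 FPKM in Scr shRNA and at 12.5, 25.9 and 30.1 FPKM in ROCK2 KD, with differences of -0.51, -0.48 and -0.06. DNAJA1 had -0.42, -0.12 and -0.05. DNAJB1, the main inducible partner of HSP70, was at 31.4, 60.4 and 54.3 FPKM in Scr shRNA and at 18.0, 59.5 and 65.4 FPKM in ROCK2 KD. Its pair 1 was lower (-0.78), pair 2 level (-0.02) and pair 3 higher (0.24). Across the 21 tested DNAJC genes the median was 0.01, with means from -0.18 for DNAJC30 to 0.16 for DNAJC15. DNAJC30 was lower in pairs 1 and 2 only, and DNAJC15 was higher in pairs 1 and 3 only. DNAJC16 was the only tested chaperone gene whose scaled FPKM did not overlap between the groups with ROCK2 KD lower (0.76% of all genes), and 0 did with ROCK2 KD higher (0.922%).

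The small heat shock protein HSPB1 (HSP27), which holds unfolded proteins without ATP, had little RNA in these cells. It was at 3.13, 3.15 and 2.85 FPKM in Scr shRNA and at 2.16, 1.93 and 1.33 FPKM in ROCK2 KD. The deposited FPKM of the groups did not overlap, while the scaled values did. Its log2 differences were -0.42, -0.48 and -0.72 (mean -0.54, standard error 0.12), and at this level the pseudocount of 1 understates them: with 0.1 the mean was -0.75. The other 5 small heat shock genes were under 0.6 FPKM in every library.

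BAG3, the stress-inducible BAG gene that links HSP70 to HSPB proteins and autophagy, was at 4.19, 5.58 and 5.93 FPKM in Scr shRNA and at 2.77, 4.42 and 5.93 FPKM in ROCK2 KD, a difference of -0.49, -0.26 and -0.02. BAG2 and BAG4 were among the 6 genes higher in all 3 pairs (0.14 and 0.09), with DNAJB5 (0.20), DNAJC21 (0.05), HSPBAP1 (0.08) and HSPB11. HSPB11, named for heat shock proteins but known as the ciliary transport protein IFT25, was at 30.0, 91.1 and 75.1 FPKM in Scr shRNA and at 38.2, 104 and 93.0 FPKM in ROCK2 KD, with a mean of 0.28, the highest of these 6.

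The chaperonin genes stayed close together. None of the 8 tested CCT subunits had 1 sign in all pairs: all 8 were higher in pair 2, all 8 lower in pair 3, and 6 lower in pair 1, with a median of -0.09. CCT3, the most abundant, was at 103, 389 and 369 FPKM in Scr shRNA and at 83.4, 396 and 344 FPKM in ROCK2 KD. The mitochondrial chaperonin HSPD1 and its partner HSPE1 were lower in all pairs, HSPD1 by -0.22, -0.02 and -0.33 and HSPE1 by -0.13, -0.09 and -0.25, and without replicate 3 their means were -0.12 and -0.10.

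HSF1, the regulator of the heat shock response, was at 23.6, 41.1 and 50.5 FPKM in Scr shRNA and at 26.0, 30.1 and 47.7 FPKM in ROCK2 KD, higher in pair 1 (0.14) and lower in pairs 2 and 3 (-0.43 and -0.10). HSF2 had a mean difference of 0.03. RNA levels do not show the activity of HSF1 protein, which is set after translation.

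**Figure D4:**
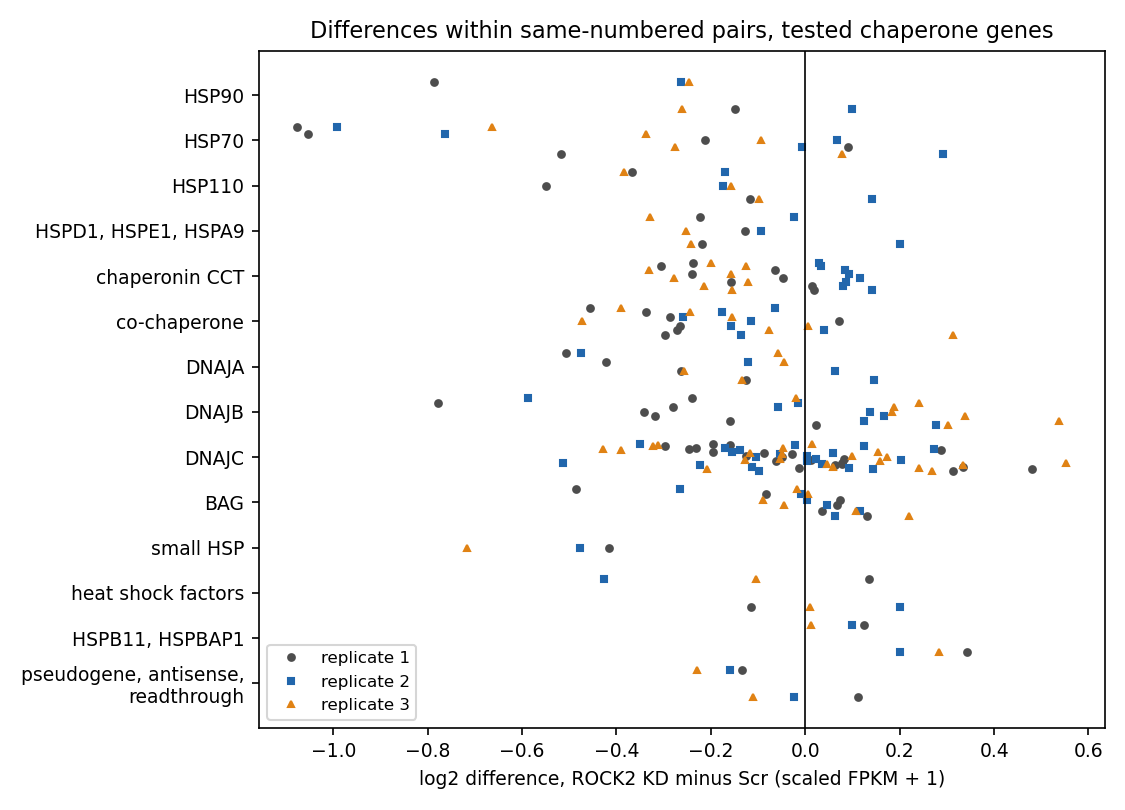
Log2 difference, ROCK2 KD minus Scr shRNA, of each tested chaperone gene by family, with 1 symbol per replicate number. The points of HSPA1A and HSPA1B run from -1.08 to -0.34 and those of HSPB1 from -0.72 to -0.42, while CCT subunits and DNAJC genes are spread around 0.

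Related genes outside the symbol rule were read from lists that were also put together with earlier results known. Of 18 further HSP90 and HSP70 co-chaperones, 4 were lower in all pairs (CDC37, PPP5C, PPID and NUDC) and 2 higher (FKBP5 and RPAP3), with a median of -0.03. PPID had -0.26 and NUDC -0.22, and FKBP5, which steroid hormones induce, had 0.22. Of 13 tested HSF1-responsive genes that are no chaperones by symbol, 3 were lower in all pairs (ZFAND2A at -0.32, MRPL18 at -0.19 and CACYBP at -0.38, of which pair 3 had -0.87 and pairs 1 and 2 had -0.05 and -0.22) and 3 higher (UBB at 0.20, RGS2 at 0.64, of which pair 2 had 1.26 and pairs 1 and 3 had 0.35 and 0.31, and TCP11L2), with a median of 0.09. Prefoldin subunits and CCT partners had 0 lower and 2 higher of 9, with a median of 0.02. The 6 ER chaperone genes left out by the rule, among them HSPA5 (BiP), had 0 lower and 0 higher in all pairs, with a median of 0.11. Their medians in pairs 1, 2 and 3 were -0.076, -0.003 and 0.384.

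The symbol rule names the contrast between the conditions, not the differences between replicate numbers, and these were tested over all genes. Each number has 1 library of each group, and the limma F-test compared the 3 numbers with the condition in the fit. An adjusted p under 0.05 was reached by 52 of the 73 chaperone genes (71.2%) and by 6050 of all 10526 genes (57.5%). Replicate 1 had the lowest level of the 3 numbers for 50 of the 73, and for 6306 of all 10526 genes. The median chaperone gene was 0.45 higher in replicate 2 and 0.52 higher in replicate 3 than in replicate 1 on the log2 scale, against 0.24 and 0.28 for all genes.

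All 8 tested CCT subunits passed the test, with medians of 1.33 and 1.34 above replicate 1 in replicates 2 and 3. The 7 co-chaperones, 3 HSP110 genes and 2 HSP90 genes all passed as well. HSP90AB1 was 1.47 and 1.67 higher in replicates 2 and 3 (adjusted p = 0.000304), HSPA8 1.43 and 1.63 (adjusted p = 0.00113) and HSPA4 1.51 in both (adjusted p = 0.000337). These sizes are above any difference between ROCK2 KD and Scr shRNA in the group. Without replicate 1, whose summed FPKM was lowest, the test between replicates 2 and 3 called 5 chaperone genes and 6.57% of all genes: BAG6, DNAJB6, HSPA1A, HSPA1B and ST13.

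HSPA1A, HSPA1B and BAG6 were lowest in replicate 3. BAG6, a chaperone for tail-anchored and mislocalized membrane proteins, was at 30.0, 74.5 and 10.7 FPKM in Scr shRNA libraries 1, 2 and 3 and at 28.2, 73.7 and 10.9 FPKM in ROCK2 KD. Its level was close between the groups (-0.03), and it had a log2 difference of -2.59 between replicates 3 and 2 (adjusted p = 9.01e-05 over the 3 numbers). HSPA1A and HSPA1B each had -1.92 (adjusted p = 0.0002 and 0.000441).

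All 3 genes lie between 28 and 34 Mb of chromosome 6, the MHC region. The other 116 tested genes of this region had a median difference of -2.10 between replicates 3 and 2, and 76.7% of them were below -1, against 2.12% of all tested genes. Between ROCK2 KD and Scr shRNA, the other genes of the region had a median of -0.03. The part of the region in the values of HSPA1A and HSPA1B was not tested.

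**Figure D5:**
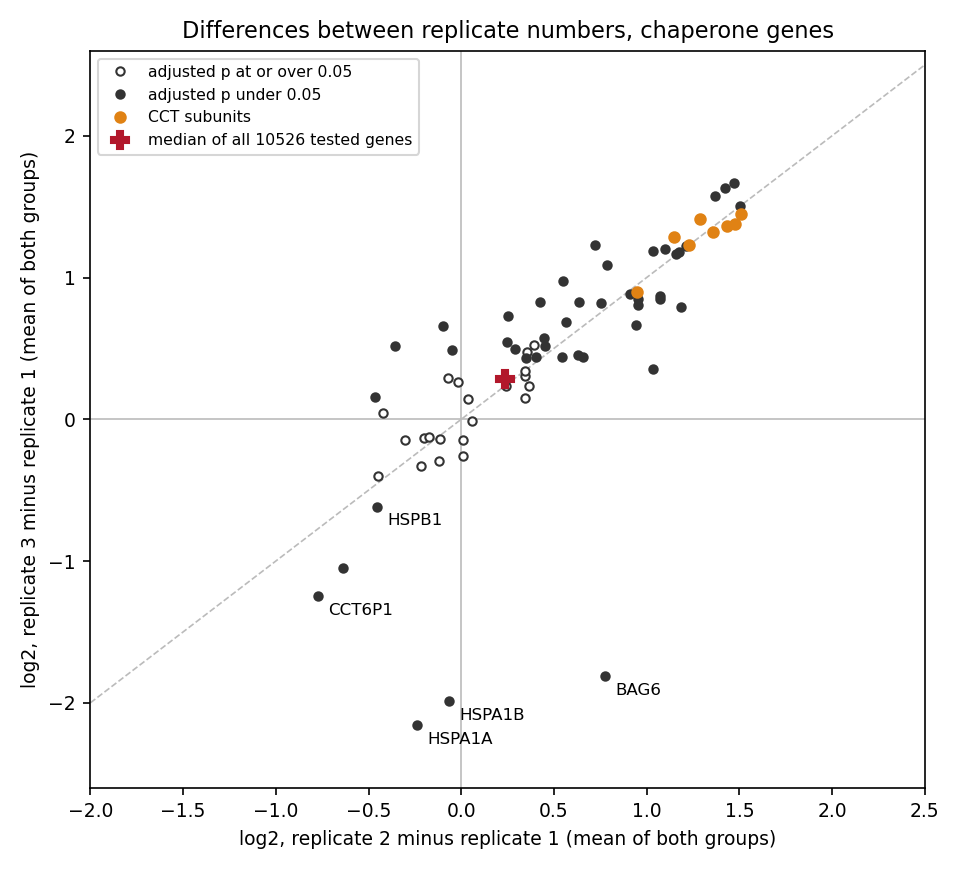
Log2 difference of each tested chaperone gene between replicate numbers, replicate 2 minus 1 on the horizontal and replicate 3 minus 1 on the vertical axis, each the mean of both groups. CCT subunits cluster at the upper right around 1.33 and 1.34, and BAG6, HSPA1A and HSPA1B lie at the bottom, between -2.16 and -1.81 in replicate 3.

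Among the symbols that were not fitted, the pseudogene HSP90B2P stood out by its level in 1 replicate number. It was at 0.33, 16.9 and 0.58 FPKM in Scr shRNA and at 0.28, 16.3 and 0.95 FPKM in ROCK2 KD, so it was high in both libraries of replicate 2 only. HSP90AB4P had the same order at a lower level, with 0.56 and 0.63 FPKM in the replicate 2 libraries and at most 0.094 FPKM elsewhere. The pseudogenes CCT6P1 and CCT6P3 were lowest in replicate 3, and 90.8% of the windows of CCT6P1 occur in another gene, so its reads cannot be assigned with certainty.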

How the data were processed

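RNA-seq libraries of 6 U2932 samples were analysed, 3 per group, grouped by the labels. The authors aligned reads of 50 bases to hg19 with STAR and deposited FPKM computed with Cufflinks for 20667 symbols. Their own test used counts, ComBat and limma. From it the paper reported genes that differed between ROCK2 KD and the scrambled control at a false discovery rate under 0.05, and that test was not repeated. Counts were not used here, and the files give no depth per library, so no counting interval is given.

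Scaling used trimmed mean log ratios (trims of 0.3 and 0.05), and the 10526 genes at 1 FPKM or more in 3 or more libraries were fitted on log2(scaled FPKM + 1) with limma 3.58.1 in R 4.3.3 (replicate block, mean-variance trend, Benjamini-Hochberg over all genes, threshold 0.05, two-sided). Both groups carry replicate numbers 1 to 3, and deviations from the group means correlated between libraries of the same number (r = 0.855, 0.785 and 0.742 across genes, against -0.65 to 0.06 for other pairings), so the numbers pair the libraries. The fits were tested on simulated data. The members and lists were chosen with earlier results of these data known. Named genes were a fixed list of chaperones, the 5 largest differences in each direction with 1 sign in all pairs, the 5 highest levels and the 5 lowest p-values between replicate numbers, and the listed genes outside the rule. Other named genes, such as HSPBP1, DNAJB6, DNAJC15, DNAJC16, DNAJC21, DNAJC30, HSPB8, HSP90B2P, HSP90AB4P, CCT6P1 and CCT6P3, were chosen after their values were seen.

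Gene positions come from GENCODE on GRCh37, 50-base windows from its transcripts, and promoters from RefSeq on GRCh38.p14. The HSPA1A and HSPA1B promoters were aligned with Biopython 1.88, and sequences and tables were handled in Python 3.11.15 (pandas 2.3.3, numpy 2.4.6). Plots used matplotlib 3.10.9. Alternatives covered the block, ComBat, pseudocount, scaling, filter, trend, condition term and each replicate, and, chosen after seeing the data, genes with little shared sequence, genes outside the MHC region and the summed HSPA1 copies. One fixed B-cell marker is not reported here.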

Additional observations from a re-analysis of the deposited data

How the results depend on the processing

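The FPKM do not hold the number of reads behind a value or the depth of each library, so no counting error is given. With the replicate number as a block limma called 0 genes between ROCK2 KD and Scr shRNA, and with no replicate block also 0 (26 genes at an unadjusted p under 0.05, of them 0 chaperone genes). With the block, 573 genes and 11 chaperone genes had an unadjusted p under 0.05. The block cannot change a difference in complete pairs, and the calls between replicate numbers test the block itself. ComBat followed by limma without the block called 296 genes, 7 of them chaperone genes. The cause was not tested.

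The calls between replicate numbers changed with the scaling. With no scaling they were 8113 genes (77.1%), 63 of them chaperone genes. With scaling to the upper quartile they were 5191 genes (49.3%), 44 of them chaperone genes. Leaving out 1 replicate number at a time, the genes called between the conditions ran from 0 to 3. The genes called between replicate numbers ran from 672 to 5378 and the chaperone genes among them from 5 to 51, both lowest without replicate 1. Chaperone genes lower in every remaining pair then numbered 24 to 35, where fewer pairs are required. The share of all genes lower in every remaining pair was not computed, so nothing is read from these counts. Restricted to the 57 tested chaperone genes with under 10% of their windows shared, 12 were lower in all pairs, against 19 of the 73. The genes left out by this limit include HSPA1A, HSPA1B and HSP90AA1, which were lower in all pairs. The median of the chaperone genes stayed negative under another pseudocount, other scalings and filters, without each replicate and in the restricted lists, from -0.11 to -0.03. Of 39 named genes with a fit, 29 kept 1 sign over the alternatives run for single genes (block, pseudocount, scaling, filter and each replicate left out). Of 353 recomputed values, 1 moved by more than the spread between pairs, HSPB1 with a pseudocount of 0.1 (-0.75). Most could not move that far, so this count does not show stability. The block and the filter leave the difference of a single gene unchanged. Leaving out 1 of 3 pairs shifts a mean by less than that spread, apart from rescaling.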
